A study of Mus musculus with 16 samples.

Results

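Islet hormone genes encode the peptides that the endocrine cells of the pancreas secrete. The 6 genes described here are Ins2, Iapp, Sst, Gcg, Ppy and Pyy, chosen by name. They were measured in R7T1 cells, a mouse beta-cell line, by 9 of the 45101 probe sets on the array, of which Iapp had 4 and the other genes 1 each. The probe set with the highest mean stood for its gene (1422446_x_at for Ins2, 1423510_at for Iapp, 1417954_at for Sst, 1425952_a_at for Gcg, 1420440_at for Ppy and 1424865_at for Pyy), so that 6 of the 18193 genes with a uniquely named probe set are described. Of these, 4 genes, Ins2, Iapp, Sst and Gcg, passed the filter on low values and were among the 10610 genes tested. Ppy and Pyy lay under log2 4, an intensity of 16, on all 16 arrays and were not tested.

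The cells received DMSO as vehicle, a compound labelled BayK8644(2a), exendin-4, or the last 2 agents together (the combination), with RNA taken at 0.5, 2, 6 and 24 h. The dihydropyridine BayK8644 opens L-type calcium channels, exendin-4 is a peptide agonist of the GLP-1 receptor, and the 2a is not explained in the labels, so the compound was read as BayK8644. Each treatment and time had 1 array and no replicate, which gave 4 arrays per treatment, and the doses are unknown here. A cell line of 1 cell type lacks the other islet cells, and the labels leave it unsaid whether each array had a culture of its own, so the p-values speak of scatter among arrays that may be technical.

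In the islet, beta cells secrete insulin together with islet amyloid polypeptide, alpha cells secrete glucagon, delta cells secrete somatostatin, and PP cells secrete pancreatic polypeptide. Each hormone gene is held to its own cell type by a set of transcription factors. The somatostatin gene is also a textbook target of cAMP signalling, since the factor CREB was found through the cAMP response element (CRE) in its promoter, and CREB is activated both by calcium entry and by cAMP.

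The promoters of the 2 genes with the largest differences, Sst and Gcg, are shown because agents of these kinds act through calcium and cAMP. The arrays measured neither of them. Sequences are those of RefSeq on GRCm38.p6, 250 bases before to 50 bases after an annotated start, on the minus strand. For Sst the window lies inside the span listed for the gene, 23889573 to 23891342, so its start is not the outer end of that span. By symbol, 5 of the 6 genes matched (Iapp, Sst, Gcg, Ppy and Pyy). Capitals mark the CRE (TGACGTCA) in Sst and the TATA box letters (TATAAA, on either strand) in Gcg.
Sst, chr16:23890795-23891094: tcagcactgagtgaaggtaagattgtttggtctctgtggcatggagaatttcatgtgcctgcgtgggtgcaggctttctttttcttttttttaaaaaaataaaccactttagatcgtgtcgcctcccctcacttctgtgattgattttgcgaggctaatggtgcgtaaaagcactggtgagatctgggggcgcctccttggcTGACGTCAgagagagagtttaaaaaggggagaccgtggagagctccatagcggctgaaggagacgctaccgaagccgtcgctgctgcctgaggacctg
Gcg, chr2:62483604-62483903: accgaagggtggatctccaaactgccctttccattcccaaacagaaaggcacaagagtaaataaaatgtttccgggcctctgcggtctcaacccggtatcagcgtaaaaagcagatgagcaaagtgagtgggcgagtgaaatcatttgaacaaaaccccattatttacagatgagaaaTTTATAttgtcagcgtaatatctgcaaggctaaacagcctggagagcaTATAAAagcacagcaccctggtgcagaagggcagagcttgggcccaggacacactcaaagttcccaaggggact
The CRE of Sst spans bases -48 to -41 before the start. The letters TGACGTCA, searched on both strands (they read the same on each), occurred in 588 of the 32851 promoter windows of 300 bases, or 1.79%. Among the members they occurred in Sst and in none of the windows of Gcg, Iapp, Ppy and Pyy. The shorter TGACG, which lies within the CRE on both strands, occurred in 20.8% of all windows and, of these 5 members, in Sst. TATAAA occurred in 13.6% of all windows, in Gcg at bases -24 to -19 on the gene's strand and at -72 to -67 on the other, and in Ppy at -31 to -26. A match is a description of letters in these windows and does not show binding. Bases further than 250 before the start were not searched, so a site there would be missed.

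All values below are log2 of the GCRMA intensity, and levels are not compared between genes, since each probe set has a response of its own. The arrays had median intensities of 10.5 to 11.6, and 46.7 to 47.7% of their probe sets reached log2 4. Of the 8 beta-cell markers on the array (Ins2, Iapp, Pdx1, Nkx6-1, Ucn3, Slc2a2, G6pc2 and Slc30a8), 7 were above log2 4 on all arrays, and Ucn3, a marker of mature beta cells, was under it on all. Ins1 and Mafa were not analysed here. Of the delta-cell markers, Hhex and Ghsr were under log2 4 on all arrays, and Rbp4 lay between 13.94 and 14.38. Of the alpha-cell markers, Irx1 was under that level on all arrays, Irx2 lay between 4.19 and 4.92, and Ttr between 16.29 and 16.60. Of the remaining cell types, 6 of the 8 mesenchymal, endothelial and leukocyte markers, 3 of the 4 acinar markers and 3 of the 4 duct markers on the array were under log2 4 on all arrays. The others were Vim (10.06 to 11.26) and Col1a2 (3.30 to 4.08), the acinar marker Cela1 (8.95 to 9.60) and the duct marker Cftr (3.36 to 4.70).

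Sst, which encodes somatostatin, was the member that differed most. On the DMSO arrays Sst stood at 5.12, 5.09, 5.12 and 5.14 at 0.5, 2, 6 and 24 h, and on the exendin-4 arrays at 5.12, 5.12, 5.11 and 5.13. With BayK8644 alone it stood at 5.10, 5.12, 5.41 and 7.37. With the combination it stood at 5.11, 5.45, 6.08 and 7.61. On 11 of the 16 arrays, the 8 without BayK8644 and 3 with it, Sst lay at or below 5.14, and those arrays cannot be ordered beyond their spread. The other 5, all with BayK8644, stood above that level, in the rising order BayK8644 at 6 h, the combination at 2 h, the combination at 6 h, BayK8644 at 24 h and the combination at 24 h. At 2 and 6 h the combination stood above BayK8644 alone, by 0.33 and 0.67, and at 24 h by 0.24, each from 1 array against 1.

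**Figure D1:**
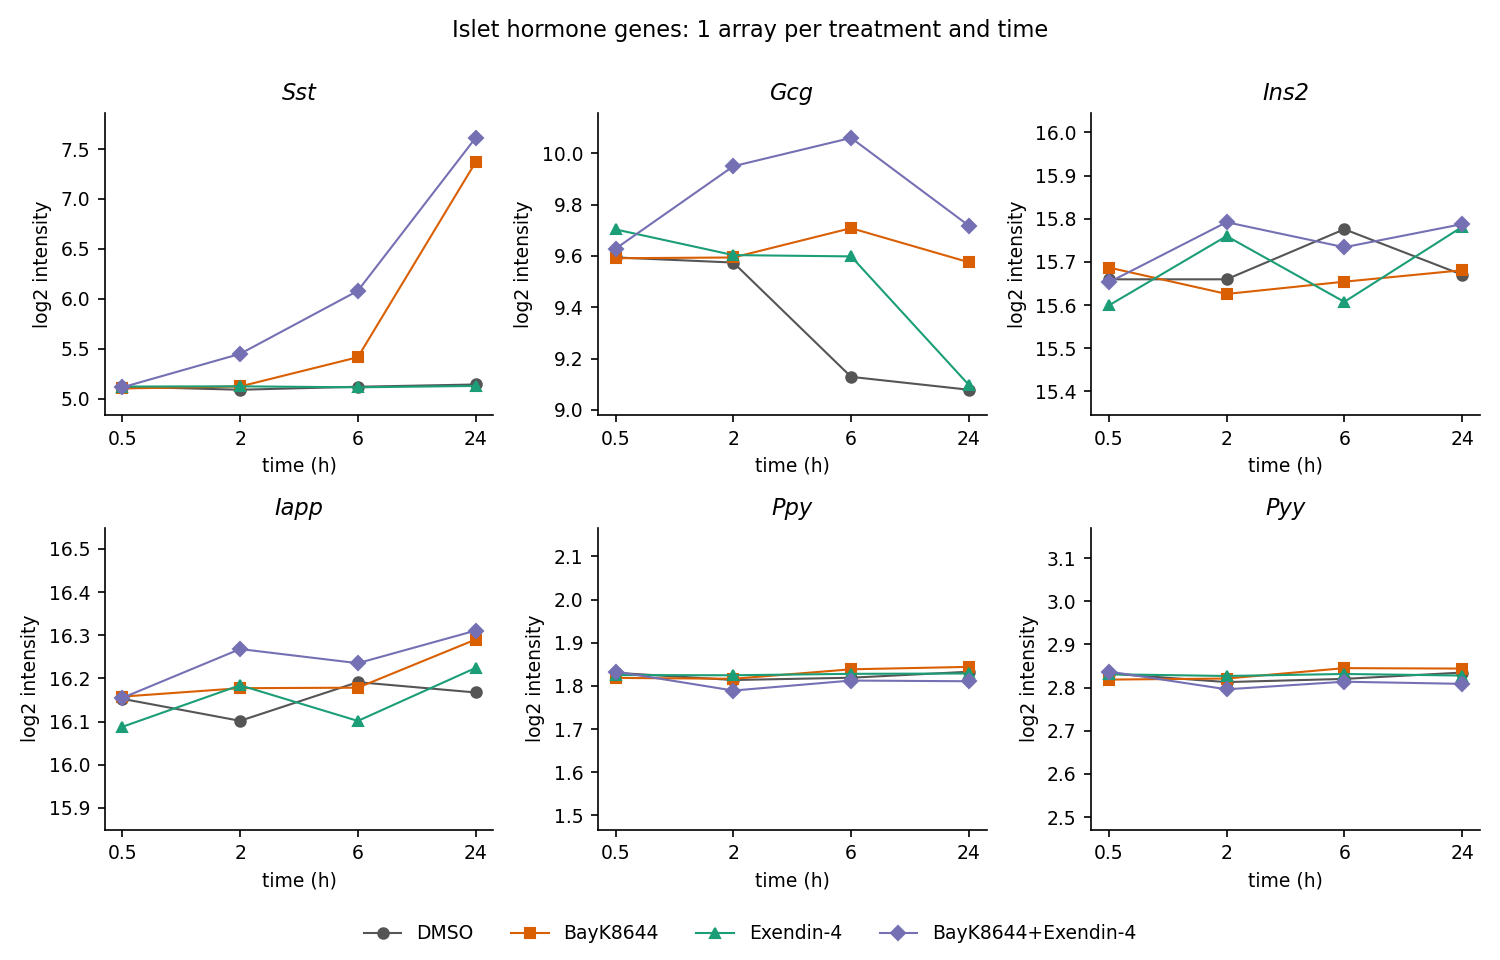
Log2 intensity (vertical axis, a separate range for each gene) against time in hours for the 6 islet hormone genes, with 1 point per array and a line per treatment. Sst leaves its level of 5.09 to 5.14 only on arrays with BayK8644, and Ppy and Pyy stay flat under log2 4.

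The effect of an agent at a time was tested by setting the 2 arrays with it against the 2 without it, in a linear model that adds the effects of both agents. At 24 h Sst was higher with BayK8644 by 2.36 ± 0.18 (SE), a 5.12-fold difference with a 95% interval of 1.96 to 2.75 on the log2 scale (limma, adjusted p = 0.000218). Both arrays with BayK8644 lay above both without it. The single differences were 2.23 for BayK8644 over DMSO and 2.49 for the combination over exendin-4. In that comparison 5.11% of all genes tested passed, and 2 of the 4 members tested did, Sst and Gcg. At 6 h the difference of Sst was 0.63 ± 0.18 (adjusted p = 0.117), made up of 0.30 for BayK8644 over DMSO and 0.97 for the combination over exendin-4. At 2 h it was 0.18 ± 0.18 (adjusted p = 0.792) and at 0.5 h -0.01 ± 0.18 (adjusted p = 1).

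In bulk RNA, more cells that express Sst and more Sst RNA per cell cannot be told apart. Without Sst, the mean log2 level of the 3 other delta-cell markers was 6.44 to 6.55 with DMSO and 6.37 to 6.54 with exendin-4. It was 6.44 to 6.50 with BayK8644 and 6.46 to 6.54 with the combination. These ranges overlapped, but they pool the 4 times, and Hhex and Ghsr lay under log2 4 on all arrays. The mean thus cannot show whether such cells changed at 24 h. Of these markers Hhex, the transcription factor gene that defines delta cells, lay between 1.77 and 1.82 on all arrays, and Ghsr, the ghrelin receptor gene, between 3.25 and 3.81. Rbp4, the gene of a retinol carrier, reached 14.28 with DMSO, 14.11 with exendin-4, 14.38 with BayK8644 and 14.37 with the combination, and its lowest values there were 14.02, 13.94, 14.05 and 14.06. The part of these markers in the Sst difference was not tested.

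The dependence of the Sst difference on time was tested directly. The BayK8644 difference of Sst was larger at 24 h than at 0.5 h by 2.37 ± 0.25 (limma, adjusted p = 0.00437), in a comparison where 1.02% of genes passed. It was larger at 24 h than at 2 h by 2.18 ± 0.25 (adjusted p = 0.0275, 0.104% of genes). Against 6 h the change was 1.72 ± 0.25 (adjusted p = 0.229, 0% of genes, 484 of them at an unadjusted p under 0.05). Sst was the only member that passed against 0.5 h and against 2 h. Against 6 h none of the 4 members tested passed. Leaving out any 1 of the 4 arrays of 0.5 h cost the change from 0.5 h its call (highest adjusted p 0.0771). The change from 2 h lost its call when any 1 of the 8 arrays of the first 2 times, or the array of exendin-4 or of the combination at 24 h, was dropped (highest adjusted p 0.336).

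**Figure D2:**
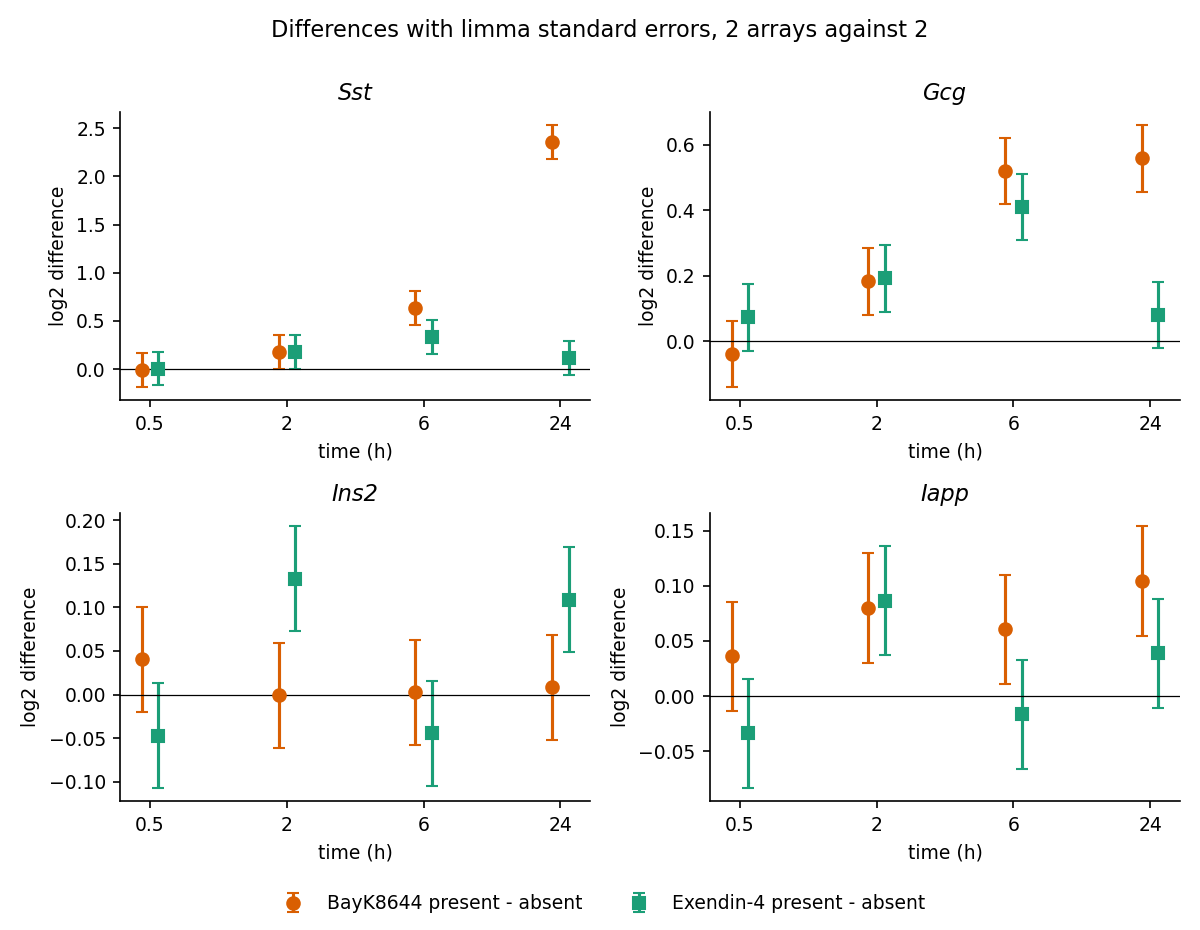
Log2 difference with limma's standard error (bars) between the 2 arrays with an agent and the 2 without it, at each time in hours, for the 4 genes tested, with a vertical range of its own for each gene. The Sst difference with BayK8644 reaches 2.36 at 24 h, while the largest difference of Ins2 or Iapp is 0.13, for Ins2 with exendin-4 at 2 h.

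The spread of Sst without BayK8644 was small for its level. Over the 8 arrays without BayK8644 it ranged over 0.05. Of the 1332 other probe sets whose mean on those arrays lay within 0.5 of that of Sst, 3.38% had a range as small, and their median range was 0.64. Ppy and Pyy, under log2 4, had ranges of 0.02 each, where probe sets near their levels had median ranges of 0.03 and 0.04. The range of Sst was thus nearer to that of probe sets with no signal than to that of probe sets at its own level. This comparison was added after the data were seen. Whether 5.12 is the floor of this probe set was not tested. Were it so, the fold difference of Sst with BayK8644 at 24 h would be a lower bound, which its interval does not cover.

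**Figure D3:**
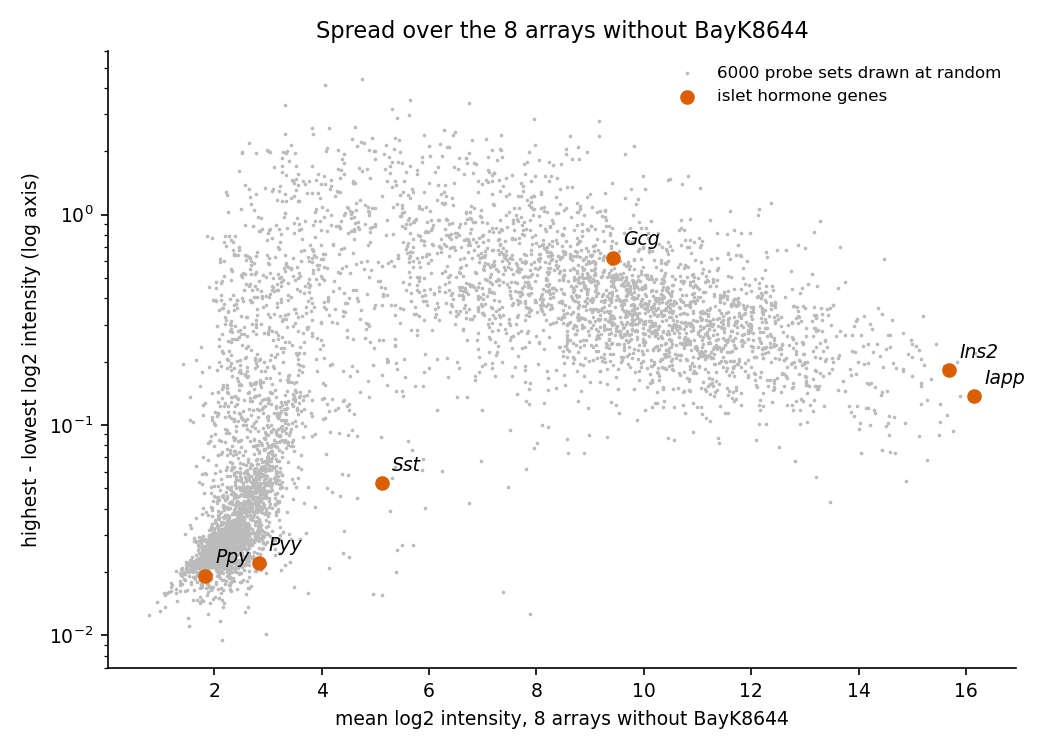
Highest minus lowest log2 intensity over the 8 arrays without BayK8644 (log axis) against the mean log2 intensity on those arrays, for 6000 probe sets drawn at random (grey) and the 6 hormone genes (orange). Sst, with a mean of 5.12 and a range of 0.05, lies below most probe sets of its level.

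Gcg, which encodes the precursor of glucagon and of GLP-1, differed too, in another way. On the DMSO arrays Gcg stood at 9.59, 9.57, 9.13 and 9.08 at 0.5, 2, 6 and 24 h. With exendin-4 it stood at 9.70, 9.60, 9.60 and 9.10. With BayK8644 it stood at 9.59, 9.59, 9.71 and 9.58. With the combination it stood at 9.63, 9.95, 10.06 and 9.72. The arrays with DMSO at 6 h and with DMSO or exendin-4 at 24 h were thus the low ones, and those with the combination at 2, 6 and 24 h the high ones. From 0.5 to 24 h the level changed by -0.52 with DMSO and -0.61 with exendin-4, against -0.02 with BayK8644 and 0.09 with the combination, each from 1 array against 1.

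Gcg was higher with BayK8644 at 6 h by 0.52 ± 0.10 (SE, limma, adjusted p = 0.0348) and at 24 h by 0.56 ± 0.10 (adjusted p = 0.0176), or 1.43-fold and 1.47-fold. At 6 h 2.48% of all genes passed, and Gcg was the 1 member of 4 that did. At 2 h the difference was 0.18 ± 0.10 (adjusted p = 0.547), with 0.02 for BayK8644 over DMSO and 0.35 for the combination over exendin-4. At 0.5 h it was -0.04 ± 0.10 (adjusted p = 1). None of the 4 members passed at 2 h, where 1.63% of genes did, or at 0.5 h, where 0.217% did. The change of the BayK8644 difference from 0.5 to 24 h was 0.60 ± 0.14 for Gcg and did not pass (adjusted p = 0.11). Dropping the 24 h array of exendin-4 or of the combination ended the Gcg call at 24 h (adjusted p = 0.144 and 0.146), and dropping any 1 of the 8 arrays taken at 0.5 and 6 h ended that at 6 h (highest adjusted p 0.313).

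Without Gcg, the mean log2 level of the 3 other alpha-cell markers on the array (Irx1, Irx2 and Ttr) was 7.69 to 7.93 with DMSO, 7.77 to 7.92 with exendin-4, 7.80 to 7.90 with BayK8644 and 7.72 to 7.80 with the combination. Irx1 lay under log2 4 on all arrays, and the other 2 markers went different ways. Irx2 reached 4.92 with DMSO, 4.82 with exendin-4, 4.87 with BayK8644 and 4.52 with the combination. Ttr reached 16.35, 16.43, 16.60 and 16.53 in that order, and its lowest values were 16.29, 16.31, 16.31 and 16.31. These ranges pool the 4 times. The part of these markers in the Gcg difference was not tested.

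Exendin-4 gave no call in any member at a single time. Its largest difference relative to its error was that of Gcg at 6 h, 0.41 ± 0.10 (limma, adjusted p = 0.688), with 0.47 for exendin-4 over DMSO and 0.35 for the combination over BayK8644. For Sst the exendin-4 differences at 0.5, 2, 6 and 24 h were 0.01, 0.18, 0.33 and 0.11, each with an SE of 0.18. On the arrays with exendin-4 alone Sst stayed within its range without BayK8644, 5.09 to 5.14, so the 0.33 at 6 h came from the combination array. Over all genes 0.00943%, 0.0189%, 0% and 0% passed with exendin-4 at the 4 times, with 739 and 627 genes at an unadjusted p under 0.05 at 6 and 24 h. Changes of the exendin-4 difference from 0.5, 2 or 6 h to 24 h passed in 0.00943%, 0% and 0% of genes and in none of the 4 members (273 and 381 genes at an unadjusted p under 0.05 for the last 2). Glp1r, the receptor gene of exendin-4, was under log2 4 on all 16 arrays.

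Over all 4 times, with the times in place of replicates, 1 member passed in 1 comparison. Gcg averaged 9.84 ± 0.20 (SD, n = 4) with the combination and 9.34 ± 0.28 with DMSO, a difference of 0.49 ± 0.12 (SE, limma, adjusted p = 0.0312), in a comparison where 6.97% of genes passed. The combination was higher at 4 of 4 times, by 0.03, 0.38, 0.93 and 0.64. This call was lost without any 1 of 6 arrays, those of DMSO and of the combination at 2, 6 and 24 h (adjusted p up to 0.133). Sst differed by 0.95 ± 0.37 between the combination and DMSO (adjusted p = 0.117) and by 0.63 ± 0.37 between BayK8644 and DMSO (adjusted p = 0.454), since in this model a change of the effect with time counts as error. Ins2 and Iapp differed between the combination and DMSO by 0.05 ± 0.04 and 0.09 ± 0.03 (adjusted p = 0.483 and 0.101). Gcg differed by 0.27 ± 0.12 between BayK8644 and DMSO (adjusted p = 0.309) and by 0.16 ± 0.12 between exendin-4 and DMSO (adjusted p = 0.871).

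The other comparisons over all times called none of the 4 members. They were BayK8644 against DMSO, exendin-4 against DMSO, the combination against BayK8644 and the combination against exendin-4, in which 0.839%, 0%, 0% and 1.89% of genes passed (698 and 1372 genes at an unadjusted p under 0.05 in those at 0%). Gcg was higher with the combination than with BayK8644 by 0.22 ± 0.12 (limma, adjusted p = 0.44) and than with exendin-4 by 0.34 ± 0.12 (adjusted p = 0.132). The comparisons with DMSO share its 4 arrays. Whether the combination exceeded the sum of the single agents was asked after the data were seen, and the excess was 0.31 ± 0.52 for Sst (adjusted p = 0.905) and 0.07 ± 0.17 for Gcg (adjusted p = 0.941), with 0% of genes passed and 710 at an unadjusted p under 0.05. The 95% intervals, -0.81 to 1.43 and -0.30 to 0.43, are wide.

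Ins2, which encodes insulin 2, differed little. On the DMSO arrays Ins2 stood at 15.66, 15.66, 15.78 and 15.67, with BayK8644 at 15.69, 15.63, 15.65 and 15.68, with exendin-4 at 15.60, 15.76, 15.61 and 15.78, and with the combination at 15.65, 15.79, 15.73 and 15.79. The groups overlapped, and no order of treatments could be told beyond the spread. At single times its differences with BayK8644 lay between -0.00 and 0.04 and with exendin-4 between -0.05 and 0.13, each with an SE of 0.06. At 24 h the 95% interval of the BayK8644 difference was -0.13 to 0.14. Its probe set is of the kind marked as able to bind related transcripts, so other insulin transcripts may add to the signal.

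Iapp, which encodes islet amyloid polypeptide, differed by little too. On the DMSO arrays Iapp stood at 16.15, 16.10, 16.19 and 16.17, with BayK8644 at 16.16, 16.18, 16.18 and 16.29, with exendin-4 at 16.09, 16.18, 16.10 and 16.22, and with the combination at 16.15, 16.27, 16.24 and 16.31. The array with the combination at 24 h was the highest, and both arrays with BayK8644 at that time lay above both without it. The BayK8644 difference at 24 h was 0.10 ± 0.05 (SE, limma, adjusted p = 0.253). The other 3 probe sets of Iapp gave 0.02, 0.05 and 0.01 at that time. Ins2 and Iapp lay among the 75 probe sets with the highest means, and the highest value on an array lay between 16.60 and 16.74. Whether signals this high were saturated was not tested, so a difference of these genes could be compressed.

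Over the hours of culture, with the 4 treatments in place of replicates, 2 of the 4 members differed between 0.5 and 24 h, where 23.6% of all genes passed. Iapp rose from 16.14 ± 0.03 (SD, n = 4) to 16.25 ± 0.07, by 0.11 ± 0.03 (SE, limma, adjusted p = 0.027). Of its further probe sets 1 passed (0.13, adjusted p = 0.0255 when all probe sets were tested) and 2 did not (0.10, adjusted p = 0.0617, and 0.02, adjusted p = 0.58). This rise was 0.06 and did not pass after quantile normalization (adjusted p = 0.207), and it was lost without any 1 of 6 arrays (adjusted p up to 0.0923). Those were the arrays of BayK8644, exendin-4 and the combination at 0.5 and at 24 h. Sst had a time difference of 1.20 ± 0.37 (adjusted p = 0.0306), which came from the arrays with BayK8644, since it stood at 5.14 with DMSO and 5.13 with exendin-4 at 24 h. Dropping the array of BayK8644 or of the combination at either of these times ended the call for Sst (highest adjusted p 0.127). Gcg differed by -0.26 ± 0.12 (adjusted p = 0.136) and Ins2 by 0.08 ± 0.04 (adjusted p = 0.209). At 2 and 6 h against 0.5 h, and at 24 h against 6 h, none of the 4 members passed, while 4.68%, 8.41% and 13.2% of genes did.

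Ppy, the pancreatic polypeptide gene, and Pyy, the peptide YY gene, lie close together on chromosome 11 of GRCm38.p6 and encode peptides of 1 family. Ppy lay between 1.79 and 1.84 and Pyy between 2.80 and 2.84 on the 16 arrays. Both were lowest on the array with the combination at 2 h, and their medians were 1.82 and 2.83. No array showed either gene above 1.84 or 2.84, while a fall, or a change too small to leave the background, was not detectable here.

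The genes with the pattern most like that of a member were found by Pearson's r over the 16 arrays, for members with a range of at least 0.5. For Sst they were Cox6a2, which encodes a subunit of cytochrome c oxidase (r = 0.983), Sct, the gene of the gut hormone secretin (r = 0.975), and Lgmn, the gene of the lysosomal protease legumain (r = 0.971). The value rests on the few arrays with high levels, and the 16 arrays share treatments and times. Cox6a2 stood at 4.33 and 4.32 with DMSO and exendin-4 at 24 h and at 7.10 and 7.06 with BayK8644 and the combination. Sct stood at 13.41, 13.37, 13.85 and 13.89 in the same order, and Lgmn at 11.38, 11.36, 11.89 and 12.17. For Gcg the likest genes were Mpp6, Arpp19 and Arfrp1 (r = 0.907, 0.903 and 0.902). None of the promoter windows found for 5 of these 6 genes (none was matched for Cox6a2) held TGACGTCA.

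**Figure D4:**
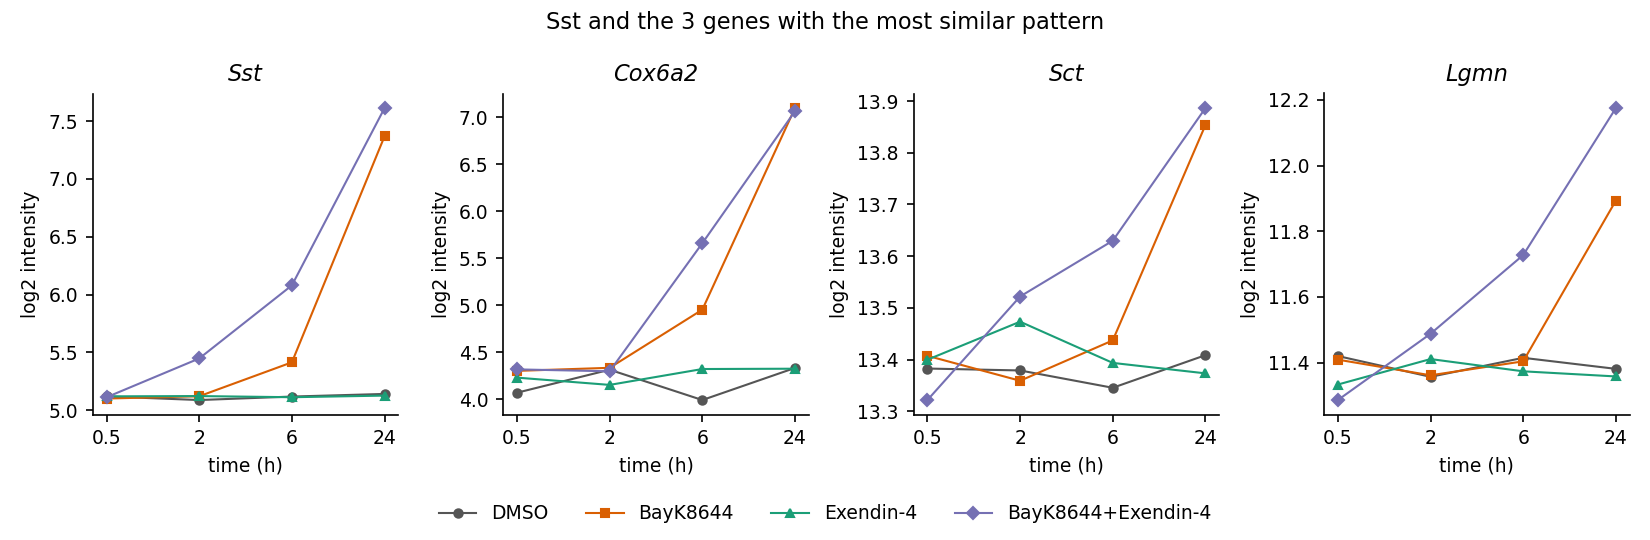
Log2 intensity (vertical axis, a separate range for each gene) against time in hours for Sst and the 3 genes with the highest Pearson's r to it over the 16 arrays, 1 point per array and a line per treatment. In each gene the 2 arrays with BayK8644 at 24 h lie above the other arrays of that time.

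Other peptide hormone genes moved at 24 h as well. The gene lists used here and below were drawn up with earlier results of these data known. Their shares and medians beside those of all genes are therefore descriptions and no test of the lists. Of 8 other islet and gut peptide genes tested, 5 rose with BayK8644 at 24 h and 0 fell, with a median of 0.52 against 0.01 over all genes, where 5.11% passed. They were Gast, the gastrin gene (1.46 ± 0.10, SE, limma, adjusted p = 0.000173), Tac1, the gene of substance P (1.41 ± 0.30, adjusted p = 0.0333), Adm, the adrenomedullin gene (1.36 ± 0.31, adjusted p = 0.0394), Cck, the cholecystokinin gene (0.56 ± 0.05, adjusted p = 0.000499), and Sct (0.48 ± 0.06, adjusted p = 0.00279). Tac1 and Adm were already higher with BayK8644 at 2 h, by 2.34 and 1.62 (limma, adjusted p = 0.00581 and 0.0354). At 6 h Tac1 was higher by 2.68 and Gast by 0.79 (adjusted p = 0.00259 and 0.00471). At 2 and 6 h 1.63% and 2.48% of all genes passed. The BayK8644 differences of Gast, Cck and Sct grew from 0.5 to 24 h, by 1.46, 0.58 and 0.51 (adjusted p = 0.00404, 0.00717 and 0.0241). For Tac1 and Adm this change did not pass. A further 9 peptide genes on the array, Ghrl, Gip, Ucn3 and Vip among them, were not tested because they lay under the filter.

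Of 15 prohormone processing and granule genes tested, 1 rose and 1 fell with BayK8644 at 24 h (median 0.08, against 0.01 over all genes, where 5.11% passed). Vgf, the gene of a granule peptide precursor, rose by 1.37 ± 0.08 (SE, limma, adjusted p = 7.36e-05), and Sytl4, which encodes the granule docking protein granuphilin, fell by 0.56 (adjusted p = 0.000499). Vgf was already higher by 1.16 at 2 h and 1.59 at 6 h (adjusted p = 0.000282 and 3.47e-05). Sytl4 was already lower by 0.48 at 6 h (adjusted p = 0.0018). At 2 and 6 h 1.63% and 2.48% of all genes passed. Over the hours of culture 9 of the 15 rose and 1 fell between 0.5 and 24 h (median 0.20, against -0.00 over all genes, where 23.6% passed). Vgf rose by 0.87 ± 0.19 (adjusted p = 0.0058), as an average over the treatments. Its BayK8644 difference grew by 1.07 between these times (limma, adjusted p = 0.00501), so part of that rise came from the arrays with BayK8644. Ptprn, which encodes a granule membrane protein, rose by 0.80 ± 0.09 (adjusted p = 2.37e-05), and Chgb, the chromogranin B gene, by 0.49 ± 0.05 (adjusted p = 4.44e-06). The 1 that fell, named after its values were seen, was Pcsk1, which encodes a prohormone convertase (-0.20 ± 0.06, adjusted p = 0.0384).

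Of 16 regulators of hormone genes tested, 1 fell with BayK8644 at 24 h and 0 rose (median -0.24, against 0.01 over all genes). That is 6.25% of the list, near the 5.11% of all genes. The 1 was Nkx2-2, a homeodomain factor gene of endocrine cells, which fell by 0.64 (SE 0.06, limma, adjusted p = 0.000499). Nkx2-2 was already lower by 0.38 at 2 h and 0.35 at 6 h (adjusted p = 0.0113 and 0.0143), where 1.63% and 2.48% of all genes passed. Pax6, an activator of islet hormone genes, was lower with the combination than with DMSO over all times by 0.29 (adjusted p = 0.0174), and Atf2, a factor of the CREB family, was higher by 0.21 (adjusted p = 0.0165), so that 2 of the 16 passed where 6.97% of all genes did. Of 6 hormone receptor genes tested, 1 passed between the combination and DMSO over all times, where 6.97% of all genes did. It was Gipr, the GIP receptor gene, which was lower with the combination by 0.35 (adjusted p = 0.0409). Sstr3, a somatostatin receptor gene, was higher with BayK8644 at 2 h by 0.69 ± 0.11 (adjusted p = 0.0193), the 1 of 6 that passed there, against 1.63% of all genes. Sstr1, Sstr4, Sstr5, Gcgr and Npy4r were under log2 4 on all arrays.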

How the data were processed

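Gene expression in 16 samples of R7T1 cells was measured on 1-colour Affymetrix arrays. The deposited values are linear intensity per probe set, and the submitters' processing notes name GCRMA, which adjusts background from probe sequence, then applies quantile normalization and a summary over probes. No version is stated in the sources at hand. Depth has no counterpart on arrays, and their number limits the precision.

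Log2 of the intensity was taken with no pseudocount. Gene symbols came from GEO's platform annotation (34958 with 1 symbol, 932 with several, 9211 with none), and control probe sets were left out. Probe sets with log2 4 or more on at least 2 arrays were kept, and the highest-mean one stood for its gene. Models were fitted across all 10610 genes in R 4.3.3 with limma 3.58.1 (lmFit, eBayes with an intensity trend) and Benjamini-Hochberg adjustment, and calls at 0.05. One model held treatment and time over all arrays (9 residual degrees of freedom). The model at each time added the effects of both agents within a time (4 degrees), and pooled its error, although the root mean square residual grew from 0.051 at 0.5 h to 0.092 at 24 h. The code was tested on simulated data.

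The members, lists and rules were chosen with earlier results of these data known. All members are named. Cell type markers are named to describe the cells. The other genes named from the lists passed the threshold and were among the 6 largest differences of their list. Pcsk1 is the exception, named because it fell. Further genes had one of the 3 highest Pearson's r to a member with a range of 0.5 or more. Genes said to lie under the filter are examples. Alternatives covered the pseudocount, filter, normalization, variance model, probe set choice, and each array and time left out.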

Additional observations from a re-analysis of the deposited data

Results flagged for a closer look

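Each treatment has 4 arrays, 1 per time, and in these groups a value was marked where its gap to the nearest other value took up more of the group's range than Dixon's 95% critical value allows. Such marks fall on about 1 in 20 groups by chance, and 4 of the 24 groups checked had one. The times are not replicates, so a value that changes with time is marked too. Sst at 24 h on the BayK8644 arrays (7.37) was marked, with the other 3 between 5.10 and 5.41. Gcg at 6 h on the BayK8644 arrays (9.71) was marked, with the other 3 between 9.58 and 9.59. Iapp at 24 h on the BayK8644 arrays (16.29) and Ins2 at 6 h on the DMSO arrays (15.78) were marked as well, each the highest of its 4. The BayK8644 difference of Sst was larger at 24 h than at 0.5 h by 2.37 and than at 2 h by 2.18, both by a test of the change itself.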

How the results depend on the processing

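For the 4 members tested, 96 differences were recomputed under 31 settings. Of 2704 values, 2630 stayed on the same side of the threshold, 57 lost and 9 gained a call, 8 untested single-array values moved, and no called value changed sign. Signs of differences with no call changed 27 times for Ins2, 17 for Iapp, 27 for Sst and 22 for Gcg. The Sst difference with BayK8644 at 24 h passed with each of the 16 arrays left out (2.23 to 2.49, adjusted p up to 0.00768).

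Without the filter on low values, the combination against DMSO for Gcg (0.49, adjusted p = 0.0675), BayK8644 at 6 h for Gcg (0.52, adjusted p = 0.0588) and 24 against 0.5 h for Sst (1.20, adjusted p = 0.0673) no longer passed. BayK8644 at 6 h for Gcg was also lost without the intensity trend (0.52, adjusted p = 0.0553) and with all probe sets (0.52, adjusted p = 0.0722). The culture-time difference of Iapp was lost after quantile normalization (0.058, adjusted p = 0.207) and without the trend (0.11, adjusted p = 0.0868). With array weights BayK8644 at 24 h for Gcg (0.56, adjusted p = 0.119) and the change from 2 to 24 h for Sst (2.18, adjusted p = 0.0563) were lost, and 24 against 6 h for Sst was gained (1.28, adjusted p = 0.0121). The change from 2 h for Sst was lost with all probe sets too (2.18, adjusted p = 0.106). The cause was not tested.

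From single arrays at 6 h, BayK8644 against DMSO and the combination against exendin-4 gave -0.12 and 0.13 for Ins2, -0.013 and 0.13 for Iapp, and 0.30 and 0.97 for Sst. At 2 h they gave 0.020 and 0.35 for Gcg.

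With an array or a time left out, the differences ranged as follows. The combination against DMSO ranged from 0.35 to 0.65 for Gcg, 0.44 to 1.26 for Sst and 0.063 to 0.118 for Iapp. Against exendin-4 it ranged from 0.24 to 0.48 for Gcg and 0.076 to 0.110 for Iapp. Without the combination array of 0.5 h the last 4 passed (adjusted p = 0.0471, 0.0462, 0.0211 and 0.0489). BayK8644 for Gcg ranged from 0.46 to 0.58 at 6 h and 0.50 to 0.62 at 24 h. The change of the BayK8644 difference of Sst ranged from 2.24 to 2.50 against 0.5 h and 2.03 to 2.32 against 2 h. For 24 against 0.5 h the ranges were 0.84 to 1.55 for Sst, 0.092 to 0.131 for Iapp and -0.38 to -0.17 for Gcg, which passed without the combination array of 0.5 h (adjusted p = 0.0357). For 24 against 6 h Sst ranged from 0.52 to 1.23 and passed without the DMSO or exendin-4 array of 24 h.

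Counts of genes called moved more. The combination against DMSO called 740 genes (272 to 2356 over the processing settings, 20 to 2219 with arrays left out), BayK8644 at 24 h 542 (119 to 763, 116 to 1467), BayK8644 at 6 h 263 (143 to 366, 30 to 412) and 24 against 0.5 h 2500 (1993 to 2559, 4164 with all probe sets). Of the calls between the combination and DMSO 465 of 740 were higher, against 347 of 818 with median centring.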
